A study of Mus musculus with 16 samples.

Results

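CD antigens are cell surface proteins that were numbered as antibodies to them were grouped, and their genes are widely used to recognise leukocytes and cells of the vessel wall. Every protein-coding gene in the deposited liver tables whose symbol is Cd followed by a number was taken, apart from 5 single genes (Cd5l, Cd36, Cd63, Cd68 and Cd74) and the Cd300 family. This gave 37 of 5205 genes. The members were grouped by the cell in which each is best known, with 7 in T and NK cells, 5 in B cells, 10 in myeloid cells, 3 in endothelial and stromal cells and 12 with a broad distribution.

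Liver RNA was sequenced from 16 male C57BL6 mice, 4 in each of 4 groups. TSP1ΔPf4 mice carry floxed alleles of the thrombospondin 1 gene and a Pf4-Cre transgene, which drives Cre in megakaryocytes and so removes the gene from platelets. Their littermate controls, TSP1F/F mice, carry the floxed alleles without Cre. Mice of each genotype were fed a low-fat (LF) diet or the AMLN diet, rich in fat, fructose and cholesterol, for 32 weeks. Library totals ranged from 17127965 to 39753019. The genotype labels could not be checked by the targeted gene, because its values in TSP1ΔPf4 livers are not analysed here.

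The deposited tables hold only genes with an unadjusted p-value under 0.05 between the diets, 2558 in TSP1F/F and 3399 in TSP1ΔPf4 mice, and 752 are in both. Of the 37 members, 17 are in the TSP1F/F table only, 7 in the TSP1ΔPf4 table only and 13 in both. Only these 13 have values in both genotypes. The selection used the same mice, so that the diet tests below do not stand as separate evidence for the diet. CPM below are counts divided by the library total, in the usual scaling, and FPKM are also divided by gene length and are used wherever levels of different genes are compared.

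T cells carry the CD3 chains, which pass the signal of the antigen receptor into the cell, and cytotoxic T cells add CD8. B cells carry CD79B as the signalling chain of their own receptor, together with CD22 and CD72, which restrain it. Macrophages and dendritic cells present antigen with the help of CD86, resident macrophages of the liver clear hemoglobin through CD163, and CD34 is found on endothelium and on blood-forming progenitors.

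Promoters were looked up because most members had higher values on the AMLN diet in TSP1F/F livers. RefSeq sequences (GRCm38.p6) covering 250 bases before to 50 after the start were found for 27 members, with 30 promoters. A pair of short motifs was searched on both strands, GAGGAA (reverse complement TTCCTC), which PU.1 and other ETS factors of blood cells are known to bind, and TGTGGT (reverse complement ACCACA), known for RUNX factors. GAGGAA or its reverse complement was in 14 of the 30 member promoters (46.7%) and in 9289 of all 32851 promoters (28.3%). TGTGGT was in 5 (16.7%) and in 16.8% of all. A match of 6 letters is a description and not a binding site. Promoters of 5 members are shown, in each cell group the gene with the smallest p-value between the AMLN-fed genotypes, leaving out Cd14. They lie at chr3:106790100-106790399 (Cd53, reverse strand), chr4:43454577-43454876 (Cd72, reverse strand), chr6:83677808-83678107 (Cd207, reverse strand), chr6:71373177-71373476 (Cd8a, forward strand) and chr1:194938571-194938870 (Cd34, forward strand). Each is written 5′ to 3′ on the strand of the gene, and capitals mark the matches to either motif.
Cd53: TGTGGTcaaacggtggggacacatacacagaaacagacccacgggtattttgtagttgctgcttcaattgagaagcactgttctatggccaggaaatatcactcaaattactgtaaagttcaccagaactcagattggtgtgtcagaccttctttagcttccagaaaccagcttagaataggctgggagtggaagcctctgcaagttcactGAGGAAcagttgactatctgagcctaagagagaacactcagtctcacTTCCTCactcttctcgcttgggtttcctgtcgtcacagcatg
Cd72: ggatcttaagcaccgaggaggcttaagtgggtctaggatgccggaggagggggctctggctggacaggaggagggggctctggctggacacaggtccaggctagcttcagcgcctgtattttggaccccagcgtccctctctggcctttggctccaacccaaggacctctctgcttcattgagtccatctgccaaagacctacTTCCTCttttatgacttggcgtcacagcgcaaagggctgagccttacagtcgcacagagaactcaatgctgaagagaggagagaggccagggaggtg
Cd207: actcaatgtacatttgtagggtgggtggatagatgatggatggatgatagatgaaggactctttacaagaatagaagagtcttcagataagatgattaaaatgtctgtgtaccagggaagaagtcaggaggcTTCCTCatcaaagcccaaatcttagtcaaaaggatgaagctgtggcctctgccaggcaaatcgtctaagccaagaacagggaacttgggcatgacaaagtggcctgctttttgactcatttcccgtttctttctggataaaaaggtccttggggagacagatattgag
Cd8a: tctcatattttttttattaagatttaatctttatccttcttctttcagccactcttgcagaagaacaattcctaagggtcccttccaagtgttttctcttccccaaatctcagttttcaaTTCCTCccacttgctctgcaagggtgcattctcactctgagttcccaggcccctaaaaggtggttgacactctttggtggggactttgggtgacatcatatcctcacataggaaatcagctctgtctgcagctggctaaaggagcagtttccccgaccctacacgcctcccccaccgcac
Cd34: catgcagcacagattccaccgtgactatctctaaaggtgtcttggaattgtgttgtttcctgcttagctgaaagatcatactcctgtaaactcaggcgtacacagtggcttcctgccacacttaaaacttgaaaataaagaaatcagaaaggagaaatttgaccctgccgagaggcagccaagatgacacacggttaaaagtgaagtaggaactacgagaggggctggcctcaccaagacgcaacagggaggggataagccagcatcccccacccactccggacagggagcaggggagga
The Cd53 promoter held 3 matches, those of Cd72, Cd207 and Cd8a held 1 each, and that of Cd34 held neither motif in this window.

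The levels spanned a wide range. In TSP1ΔPf4 livers the most abundant members were Cd302, a C-type lectin receptor of phagocytes that hepatocytes also express, with a mean of 465 FPKM on the LF diet, Cd1d1, which presents lipids to NKT cells, with 172, and Cd59a, which blocks the membrane attack complex of complement, with 71.4. Cd302, Cd1d1 and Cd59a are listed in TSP1ΔPf4 livers only and could not be ranked in TSP1F/F livers. Of the 30 members listed in TSP1F/F livers, the highest on the AMLN diet was Cd53, a tetraspanin of leukocytes, with 16.1 FPKM. Next were Cd207, the lectin langerin of Langerhans-type dendritic cells, with 15.7, and Cd52, a small glycoprotein of lymphocytes and myeloid cells, with 11.2 FPKM. Without replicate 4 the mean of Cd53 was 8.43 FPKM, below Cd207 with 14.1 and Cd52 with 10.2. The T and NK cell genes had mean levels of at most 0.448 FPKM in any group. Hepatocyte markers were abundant in these livers, where Apoa1 had a mean of 10374 FPKM in TSP1ΔPf4 and Ttr 3590 in TSP1F/F livers.

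**Figure D1:**
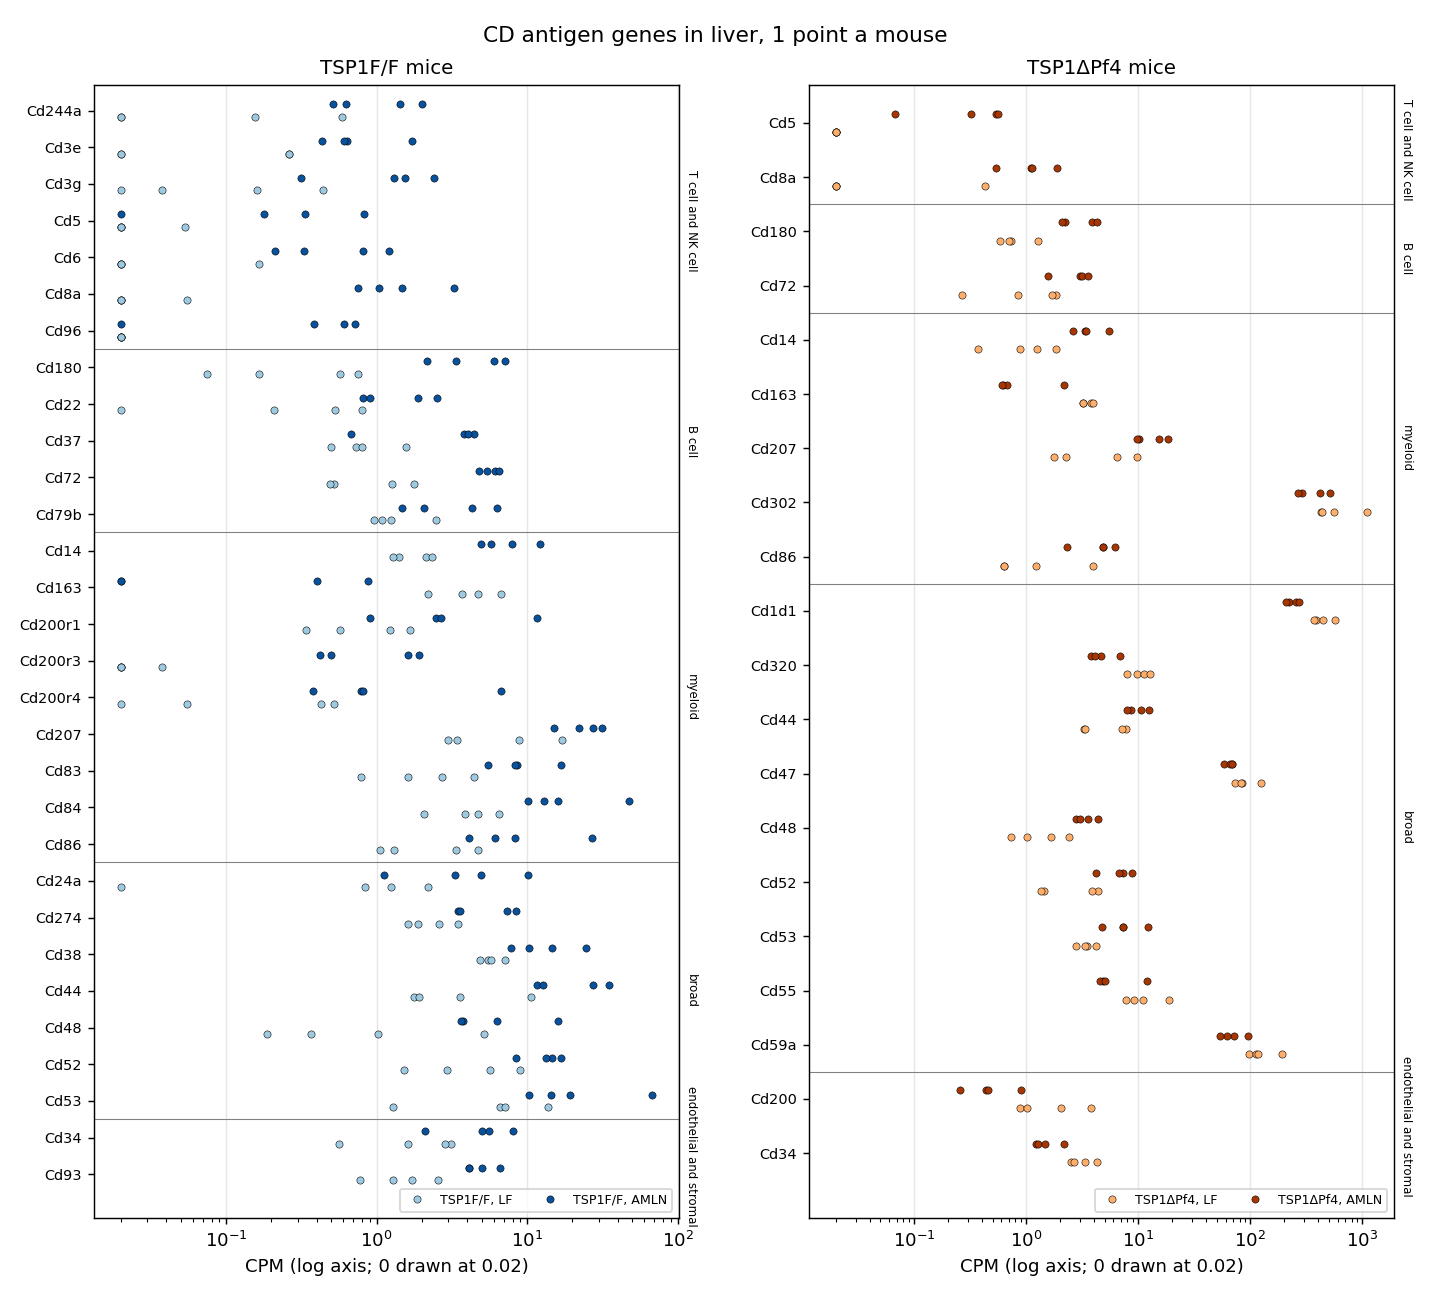
CPM of each member (log axis) in every mouse, LF-fed in the pale and AMLN-fed in the dark colour, with TSP1F/F mice on the left and TSP1ΔPf4 mice on the right; members are grouped by main cell. In TSP1F/F livers most dark points lie to the right of the pale ones, apart from Cd163, while in TSP1ΔPf4 livers the abundant broad members, such as Cd1d1, lie to the left; values of 0 are drawn at the left edge.

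The diets were compared within each genotype. In TSP1F/F livers 24 of the 30 listed members had enough counts to be tested, and 23 of these had higher (63.4% of all genes tested) and 1 had lower values (36.6%) on the AMLN diet, with a median log2 fold change of 2.07 beside 1.15 over all 2096 genes tested. After Benjamini-Hochberg adjustment over 16784 genes, the number behind the deposited adjustment, edgeR's quasi-likelihood test called 1 member higher, Cd8a, and 0 lower, where 2.39% of all tested genes were called higher and 0.0954% lower. At an unadjusted p-value under 0.05, 21 members were higher (53.0% of all genes tested) and 1 was lower (27.1%). The 4 AMLN-fed mice lay above the 4 LF-fed mice in 10 of the 24 (36.6% of all) and below them in 1 (15.6%). With Cd8a set to the lower bound of its ratio, the median of the members remained 2.07. DESeq2 with its own size factors called 6 members higher (13.6% of all genes tested) and 1 lower (21.8%). Calls of DESeq2 are those with its own size factors unless the deposited ones are named. In bulk liver a change in the number of cells that carry a gene and a change in its RNA per cell cannot be told apart.

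In TSP1ΔPf4 livers 19 of the 20 listed members could be tested. Higher values were seen in 10 (42.9% of all genes tested) and lower values in 9 (57.1%), with a median log2 fold change of 0.87 beside −0.54 over the 3089 genes tested. None was called by edgeR after adjustment over 13927 genes, where 1.46% of all tested genes were called higher and 1.52% lower, while DESeq2 with its own size factors called 10 higher (32.7% of all) and 3 lower (11.8%), and edgeR with TMM called 2 higher (5.18%) and 0 lower (1.23%). At an unadjusted p-value under 0.05, 10 members were higher (33.8% of all) and 8 lower (51.9% of all), and the diet groups did not overlap in 7 that were higher (20.4%) and 6 that were lower (29.1%). The median of all genes moved from 1.15 to 0.97 under TMM and 0.78 under the size factors of DESeq2 in TSP1F/F, and from −0.54 to −0.21 and −0.20 in TSP1ΔPf4, but no tested member changed direction with any of these scalings. In each scaling 1 of the 24 members in TSP1F/F and 8 of the 19 in TSP1ΔPf4 livers lay below the median of all genes.

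**Figure D2:**
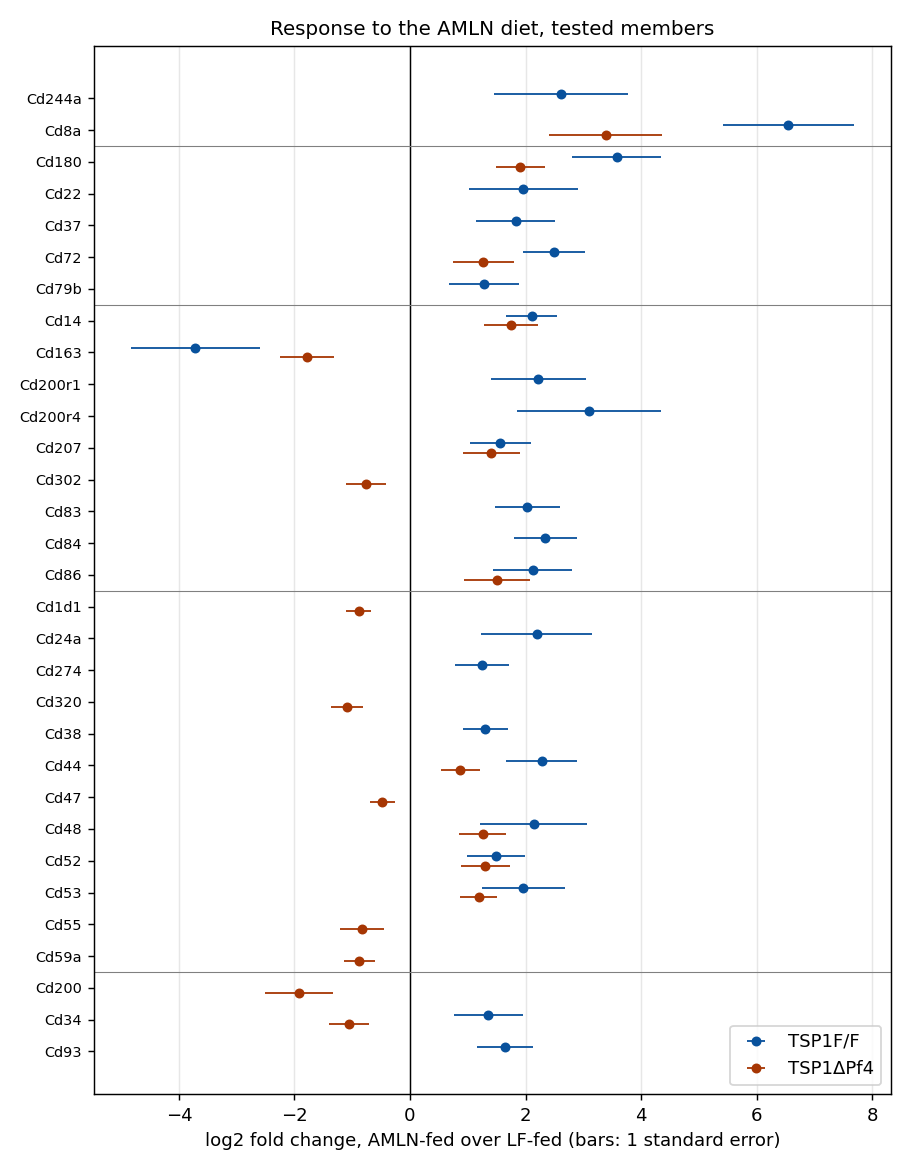
Log2 fold change of AMLN-fed over LF-fed mice for each tested member, with 1 standard error, in TSP1F/F (blue) and TSP1ΔPf4 (brown) livers; horizontal lines separate the main cells. Values to the left of 0 are lower on the AMLN diet, as for Cd163 in both genotypes and for Cd1d1, Cd302, Cd320, Cd47, Cd55, Cd59a, Cd200 and Cd34 in TSP1ΔPf4 livers.

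Among the T and NK cell genes, Cd8a (ENSMUSG00000053977, chromosome 6 of mm10, 71373427 to 71379173, forward strand) is the gene for a chain of the CD8 co-receptor of cytotoxic T cells. In LF-fed TSP1F/F mice it had 0, 0, 0.0551 and 0 CPM, which is 1 count in all, and in AMLN-fed TSP1F/F mice 0.756, 1.48, 3.25 and 1.03. The diets did not overlap, and AMLN replicate 3 was the highest. The ratio of the summed counts was 150-fold, with an exact 95% interval of 26.6 to 5953 that covers counting error only. The fitted log2 fold change was 6.55 (edgeR adjusted p = 0.0442, standard error 1.14), a size that depends on the prior count, and all 4 AMLN-fed mice showed the direction. The call was lost in each of the 8 fits without 1 mouse, and over 15 alternatives the adjusted p from edgeR or DESeq2 ran from 9.18e-05 to 0.172. In TSP1ΔPf4 mice Cd8a had 0.425, 0, 0 and 0 CPM on the LF diet and 0.534, 1.11, 1.88 and 1.12 on the AMLN diet, a log2 fold change of 3.39 (edgeR adjusted p = 0.103, standard error 0.98). The highest LF-fed TSP1ΔPf4 mouse was again below the lowest AMLN-fed one. Without that LF-fed mouse, replicate 1, the LF-fed TSP1ΔPf4 mice had 0 counts, the AMLN-fed level was at least 22.2-fold higher against a floor of 3 counts over the group, and edgeR's test passed the threshold. The difference between the genotypes in the response of Cd8a was −3.15 (edgeR adjusted p = 0.433, standard error 1.77). Its fitted sign turned without the same mouse (1.27), where its size depends on the prior count and is no measure of the difference.

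The other T and NK cell genes had few counts. Cd244a, a receptor of the SLAM family on NK cells, had a log2 fold change of 2.62 in TSP1F/F livers (edgeR adjusted p = 0.484, standard error 1.16). It was 4.40 without LF-fed TSP1F/F replicate 2, where the LF-fed mice had 3, 0 and 0 counts and the size depends in part on the prior count. Cd3g, the gamma chain of CD3, was the T cell member with the highest mean FPKM over all mice in which each is listed. In AMLN-fed TSP1F/F livers its mean of 0.425 FPKM was below that of Cd8a, 0.448. Cd3g had 0, 0.161, 0.441 and 0.0375 CPM on the LF diet and 1.54, 0.314, 1.31 and 2.40 on the AMLN diet, and was too low to be tested. The diets overlapped in Cd3g through AMLN replicate 2. Cd5, a scavenger-type receptor that dampens receptor signals, had 0 counts in all LF-fed TSP1ΔPf4 mice and 0.0667, 0.535, 0.319 and 0.560 CPM in AMLN-fed ones, at least 8.78-fold higher against a floor of 3 counts over the group. In TSP1F/F mice its ratio was 34.95-fold (exact 95% interval 5.98 to 1409), with 1 count in LF-fed mice. Of the 48 Cd5 counts in AMLN-fed TSP1F/F mice, 33 were in replicate 3, and replicate 4 had 0, so that the diets overlapped. Without replicate 3 the AMLN-fed mean was 0.171 in place of 0.336 CPM. Cd6 and Cd96 were also near 0 in LF-fed TSP1F/F mice, Cd6 with a ratio of 19.2-fold (exact 95% interval 6.33 to 94.97) and Cd96 at least 11.4-fold higher on the AMLN diet. Of the 79 Cd6 counts in AMLN-fed TSP1F/F mice, 48 were in replicate 3, without which the mean was 0.449 in place of 0.639 CPM. AMLN-fed TSP1F/F replicate 1 had 0 counts of Cd96, as did all LF-fed TSP1F/F mice. Cd4 was not analysed here.

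All 5 B cell genes had higher values in AMLN-fed TSP1F/F livers, with log2 fold changes from 1.29 to 3.58. By edgeR 0 were called and 3 of the 5 had an unadjusted p-value under 0.05, where 53.0% of all tested genes were higher at that level, while DESeq2 called Cd72 and Cd180 (13.6% of all higher). Cd72 (ENSMUSG00000028459, chromosome 4, 43446462 to 43454628, reverse strand) had 0.522, 1.77, 1.27 and 0.488 CPM in LF-fed and 6.08, 4.76, 6.49 and 5.39 in AMLN-fed TSP1F/F mice, and 0.266, 1.84, 1.69 and 0.849 in LF-fed and 1.57, 3.002, 3.16 and 3.53 in AMLN-fed TSP1ΔPf4 mice. The diets were separate in TSP1F/F mice and overlapped in TSP1ΔPf4 mice. Its log2 fold changes were 2.49 (edgeR adjusted p = 0.0837, standard error 0.53) and 1.27 (edgeR adjusted p = 0.219, standard error 0.53). Cd180, a relative of the Toll-like receptors that B cells and macrophages carry, had 3.58 in TSP1F/F (standard error 0.77) and 1.91 in TSP1ΔPf4 livers (standard error 0.42). Cd79b, the B cell member with the highest mean FPKM, had 1.29 in TSP1F/F livers (edgeR adjusted p = 0.524, standard error 0.61), and 0.86 without AMLN-fed replicate 4.

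Of the 8 myeloid genes tested in TSP1F/F livers, 7 had higher and 1 had lower values on the AMLN diet. Cd14, the co-receptor for bacterial lipopolysaccharide, had a log2 fold change of 2.11 in TSP1F/F (edgeR adjusted p = 0.0773, standard error 0.44) and 1.75 in TSP1ΔPf4 livers (edgeR adjusted p = 0.0869, standard error 0.47), with no overlap of the diets in either genotype. Cd207 had 2.97, 8.90, 17.1 and 3.41 CPM in LF-fed and 15.1, 27.3, 22.0 and 31.3 in AMLN-fed TSP1F/F mice, where LF replicate 3 exceeded the lowest AMLN-fed mouse. Cd86, a ligand of the T cell co-stimulator CD28, had 4.11, 6.15, 8.28 and 27.2 CPM in AMLN-fed TSP1F/F mice, with replicate 4 far above the others, and its log2 fold change was 2.13 with all mice (standard error 0.68) and 1.24 without that mouse. In TSP1ΔPf4 livers Cd86 had 1.51, and 2.46 without LF-fed TSP1ΔPf4 replicate 3, where it passed the threshold. Cd200r4, a receptor of the CD200 family, had 0.787, 0.808, 0.377 and 6.75 CPM in AMLN-fed TSP1F/F mice, and its log2 fold change of 3.10 was 1.39 without replicate 4. Cd200r3, a related myeloid gene near 0 in LF-fed TSP1F/F mice, had a ratio of 90.3-fold (exact 95% interval 15.9 to 3595). Cd200r4 lies near genes of the same family, Cd200r1 and Cd200r3, and whether reads were split between them was not tested.

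Cd163 (ENSMUSG00000008845, chromosome 6, 124304656 to 124330527, forward strand), the scavenger receptor for hemoglobin on resident macrophages, had lower values on the AMLN diet in both genotypes. It had 6.73, 4.72, 2.21 and 3.71 CPM in LF-fed and 0.877, 0.404, 0 and 0 in AMLN-fed TSP1F/F mice, and 3.77, 3.19, 3.21 and 3.98 in LF-fed and 2.17, 0.617, 0.670 and 0.603 in AMLN-fed TSP1ΔPf4 mice. Every AMLN-fed mouse was below every LF-fed mouse of its genotype. The log2 fold changes were −3.71 (edgeR adjusted p = 0.237, standard error 1.12) and −1.79 (edgeR adjusted p = 0.0844, standard error 0.46). DESeq2 called Cd163 in both genotypes, with its own and with the deposited size factors. With its own, it called 21.8% of all tested genes lower in TSP1F/F and 11.8% in TSP1ΔPf4 livers. Most macrophage and monocyte markers in the tables were higher on the AMLN diet. In TSP1F/F livers 13 of 14 were higher, 5 of them called (Mpeg1, Itgax, Csf1r, C1qc and Fcgr1), where 2.39% of all tested genes were called higher. The other, Marco, had a log2 fold change of −2.75 and was called by DESeq2 with its own size factors. The summed level of these 14 markers was 133, 259, 648 and 160 CPM in LF-fed and 762, 809, 941 and 2311 in AMLN-fed TSP1F/F mice, with Lyz2 the most abundant (mean 288 FPKM) and no listed gene at 0 in a group. In TSP1ΔPf4 livers all 10 were higher, 3 of them called (Csf1r, Mpeg1 and C1qc), where 1.46% of all tested genes were called higher. The sums there were 120, 141, 213 and 153 CPM on the LF and 389, 359, 322 and 453 on the AMLN diet. These sums cover different genes in the genotypes and are not compared between them. The part of this list in the member values was not tested.

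All 7 broad members tested in TSP1F/F livers had higher values on the AMLN diet. In TSP1ΔPf4 livers the 4 listed in both tables (Cd44, Cd48, Cd52 and Cd53) had higher values and the 5 listed there only had lower values. Cd53 (ENSMUSG00000040747, chromosome 3, 106759921 to 106790149, reverse strand) had 6.63, 7.18, 13.7 and 1.28 CPM in LF-fed and 10.3, 14.3, 19.4 and 67.9 in AMLN-fed TSP1F/F mice, and 3.51, 2.75, 4.20 and 3.34 in LF-fed and 4.70, 7.32, 7.24 and 12.3 in AMLN-fed TSP1ΔPf4 mice. The diets overlapped in TSP1F/F mice through LF replicate 3 and were separate in TSP1ΔPf4 mice. The log2 fold changes were 1.96 (standard error 0.72) and 1.19 (standard error 0.32), the first of them 1.03 without AMLN-fed TSP1F/F replicate 4. Cd44, the hyaluronan receptor, had 2.28 (standard error 0.62) in TSP1F/F and 0.87 (standard error 0.33) in TSP1ΔPf4 livers, Cd48, the ligand of CD244, 2.14 (standard error 0.93) and 1.26 (standard error 0.41), and Cd52 1.49 (standard error 0.51) and 1.30 (standard error 0.43). Without LF-fed TSP1F/F replicate 3, Cd44 had 3.16 in TSP1F/F livers and passed the threshold, and Cd48 had 3.84 and did not.

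The 5 broad members with lower values in AMLN-fed TSP1ΔPf4 livers were Cd1d1, Cd320, Cd47, Cd55 and Cd59a. By edgeR 0 were called and 4 had an unadjusted p-value under 0.05, where 51.9% of all tested genes were lower at that level. DESeq2 called Cd1d1 and Cd320 (11.8% of all lower), and with the deposited size factors also Cd59a. Cd1d1 had 383, 370, 567 and 449 CPM in LF-fed and 219, 257, 207 and 270 in AMLN-fed TSP1ΔPf4 mice, and the diets did not overlap. Its log2 fold change was −0.89 (edgeR adjusted p = 0.0685, standard error 0.21), which is below the median of −0.54 over all genes of that table. Cd59a had −0.88 (standard error 0.27) and Cd320, the receptor for transcobalamin-bound vitamin B12, −1.09 (edgeR adjusted p = 0.0793, standard error 0.27), which passed the threshold at −1.30 without AMLN-fed TSP1ΔPf4 replicate 4. Cd302, counted with the myeloid genes, had 430, 433, 1103 and 553 CPM on the LF and 418, 288, 265 and 516 on the AMLN diet, where the diets overlapped and LF replicate 3 was the highest (log2 fold change −0.76, standard error 0.34, and −0.35 without that mouse). Relative to the median of all genes, Cd1d1 had −0.35, Cd320 −0.55, Cd59a −0.34, Cd302 −0.22 and Cd47 0.07. The summed hepatocyte markers were also lower on the AMLN diet in these mice. Apoa1 was the most abundant of them, with means of 17374.5 CPM in LF-fed and 8271 CPM in AMLN-fed TSP1ΔPf4 mice. The 6 listed, 4 lower and 2 higher, had a sum of 24245, 25866, 34224 and 28759 CPM in LF-fed and 19000, 13464, 15344 and 19669 in AMLN-fed TSP1ΔPf4 mice, and their part in the lower values was not tested.

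The endothelial and stromal members were Cd34, Cd93 and Cd200. Cd34 (ENSMUSG00000016494, chromosome 1, 194938819 to 194961279, forward strand) had 1.62, 3.11, 2.87 and 0.563 CPM in LF-fed and 4.99, 2.11, 8.07 and 5.61 in AMLN-fed TSP1F/F mice, and 4.30, 3.33, 2.51 and 2.65 in LF-fed and 2.17, 1.23, 1.28 and 1.46 in AMLN-fed TSP1ΔPf4 mice. AMLN replicate 2 overlapped the LF-fed TSP1F/F mice, while in TSP1ΔPf4 every AMLN-fed mouse was below every LF-fed mouse. The log2 fold changes were 1.36 (edgeR adjusted p = 0.484, standard error 0.60) and −1.06 (edgeR adjusted p = 0.135, standard error 0.35). Cd93, a lectin-like receptor of endothelium, was higher in AMLN-fed TSP1F/F livers (1.64, standard error 0.49), and Cd200, the ligand of the CD200 receptors, was lower in AMLN-fed TSP1ΔPf4 livers (−1.92, standard error 0.59), each with an unadjusted p-value under 0.05 by edgeR. Neither was called by edgeR or DESeq2, but both were called by DESeq2 with the deposited size factors and by edgeR when adjusted over the tested genes alone. In TSP1F/F livers those settings called 448 and 807 of all 2096 tested genes higher. In TSP1ΔPf4 livers they called 674 and 1362 of all 3089 tested genes lower. Of 14 endothelial markers, 3 were listed in TSP1F/F and 4 in TSP1ΔPf4 livers, and most of those listed were higher on the AMLN diet. Of all genes tested, 63.4% were higher in TSP1F/F and 42.9% in TSP1ΔPf4 livers. By edgeR 0 of these markers were called, while DESeq2 called Lyve1, Plvap and Stab2 in TSP1ΔPf4 livers (32.7% of all higher). All 3 listed in TSP1F/F were higher on the AMLN diet (sums 24.8, 26.6, 9.93 and 25.9 CPM on LF, 44.4, 40.5, 46.5 and 45.7 on AMLN), as were 3 of 4 in TSP1ΔPf4 livers (82.8, 84.9, 75.4 and 90.8 on LF, 94.1, 108, 115 and 108 on AMLN), with Stab2 and Plvap the most abundant. Between the AMLN-fed genotypes, the shared markers Lyve1 and Stab2 had log2 fold changes of 0.16 and 0.09. The part of these markers in the Cd34 values was not tested.

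The genotypes were compared on the AMLN diet over the genes in both tables. These values share the AMLN-fed mice with the diet comparisons, so that the comparisons are not independent. Of 12 members tested, 11 had lower values in AMLN-fed TSP1ΔPf4 livers (73.1% of all genes tested) and 1, Cd163, had higher values (26.9%), with a median log2 fold change of −1.04 beside −0.38 over all 733 genes tested. The median of the members was −0.68 without AMLN-fed TSP1F/F replicate 4. It was −0.76 under TMM, where that of all genes was −0.10, and −0.67 under the size factors of DESeq2, where that of all genes was −0.03, and 11 members lay below the median of all genes with each scaling. Cd34 was the member called by edgeR after adjustment (1 lower, 8.46% of all genes, and 0 higher, 0.546%), and DESeq2 with its own size factors called 0 higher (2.32% of all) and 2 lower (7.64%), which were Cd34 and Cd53. At an unadjusted p-value under 0.05, 9 members were lower (22.6% of all) and 0 higher (2.59%), but 3 were lower with TMM (13.6% of all) and 3 with DESeq2 (12.7%). Without AMLN-fed TSP1ΔPf4 replicate 1 there were 5 lower (16.7% of all), and 5 without replicate 2 (16.9%). The groups did not overlap for 1 member, Cd72, which was lower (12.4% of all), and for 0 that were higher (2.59%).

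**Figure D3:**
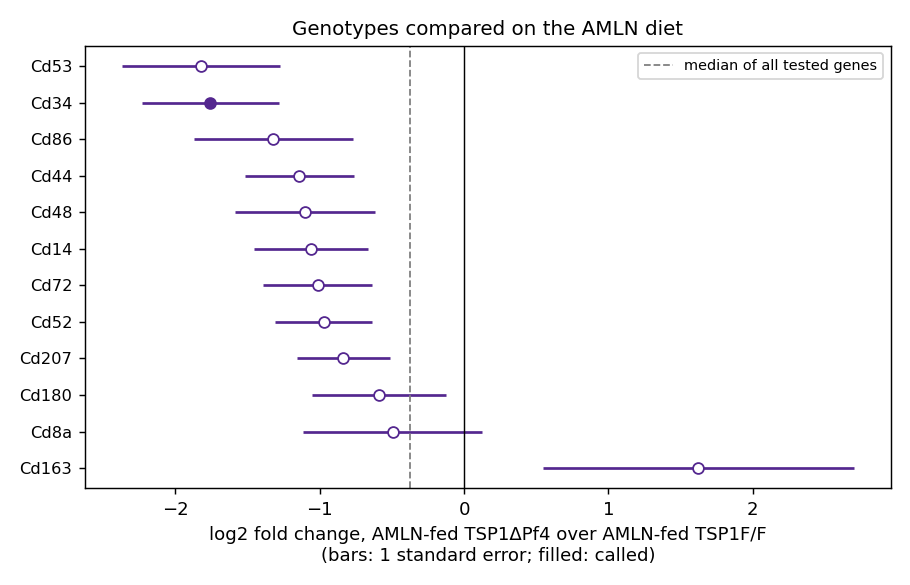
Log2 fold change of AMLN-fed TSP1ΔPf4 over AMLN-fed TSP1F/F mice for the 12 tested members, with 1 standard error; the filled point was called and the dashed line is the median of all tested genes, −0.38. All points but Cd163 lie to the left of that line.

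On the AMLN diet the level of Cd34 was 5.20 ± 2.45 CPM with TSP1F/F and 1.54 ± 0.434 CPM with TSP1ΔPf4 genotype (mean ± SD, n = 4). The log2 fold change was −1.76 (edgeR adjusted p = 0.0344, standard error 0.47), or −1.38 relative to the median of all genes. Of the 4 AMLN-fed TSP1ΔPf4 mice, 3 lay below every AMLN-fed TSP1F/F mouse, and a two-sided exact permutation test of the means gave p = 0.0571, where 4 against 4 mice allow no p under 0.0286. The call was lost with TMM and in 7 of the 8 fits without 1 mouse, all but that without AMLN-fed TSP1F/F replicate 2, and the adjusted p ran from 0.00303 to 0.126 over 15 alternatives. The difference between the genotypes in the response of Cd34 to the diet had a log2 size of −2.41 (edgeR adjusted p = 0.0766, standard error 0.73), not past the threshold, and its adjusted p ran from 0.0144 to 0.179 over 22 alternatives. It passed with DESeq2 under both sets of size factors and without AMLN-fed TSP1F/F replicate 2.

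For Cd72 the levels were 5.68 ± 0.763 CPM (TSP1F/F) and 2.81 ± 0.860 CPM (TSP1ΔPf4), a log2 fold change of −1.01 (edgeR adjusted p = 0.116, standard error 0.38; exact permutation p = 0.0286, the smallest possible). Cd53 had the lowest fold change, −1.82 (edgeR adjusted p = 0.0601, standard error 0.55), and −0.90 without AMLN-fed TSP1F/F replicate 4. It passed the threshold without AMLN-fed TSP1F/F replicate 1 (−2.10) or 2 (−2.04), as did Cd44 (−1.35 and −1.32). Without replicate 4 Cd86 moved from −1.32 to −0.44 and Cd48 from −1.10 to −0.41. Cd44 had −1.14, Cd14 −1.06, Cd52 −0.97, Cd207 −0.84, Cd180 −0.59 and Cd8a −0.50. Without AMLN-fed TSP1F/F replicate 3, Cd180 had −0.31 and Cd8a 0.10, and Cd8a had −0.25 and −0.83 without AMLN-fed TSP1ΔPf4 replicates 1 and 3. Cd163 had 1.62 (edgeR adjusted p = 0.396, standard error 1.08), with 0.94 without AMLN-fed TSP1ΔPf4 replicate 1 and 2.96 without AMLN-fed TSP1F/F replicate 1. Cd5, the other member in both tables, had means of 0.336 (0.171 without replicate 3) and 0.370 CPM in TSP1F/F and TSP1ΔPf4 livers and was too low to be tested. The markers of macrophages and monocytes gave 9 of 10 lower in AMLN-fed TSP1ΔPf4 livers, with Fcgr1 and Lyz2 called. Of all genes tested there 73.1% were lower and 8.46% were called lower. The leukocyte markers not named Cd gave 4 of 4 lower, with 0 called by edgeR or by DESeq2 under either set of size factors and 0 at an unadjusted p-value under 0.05 by edgeR.

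**Figure D4:**
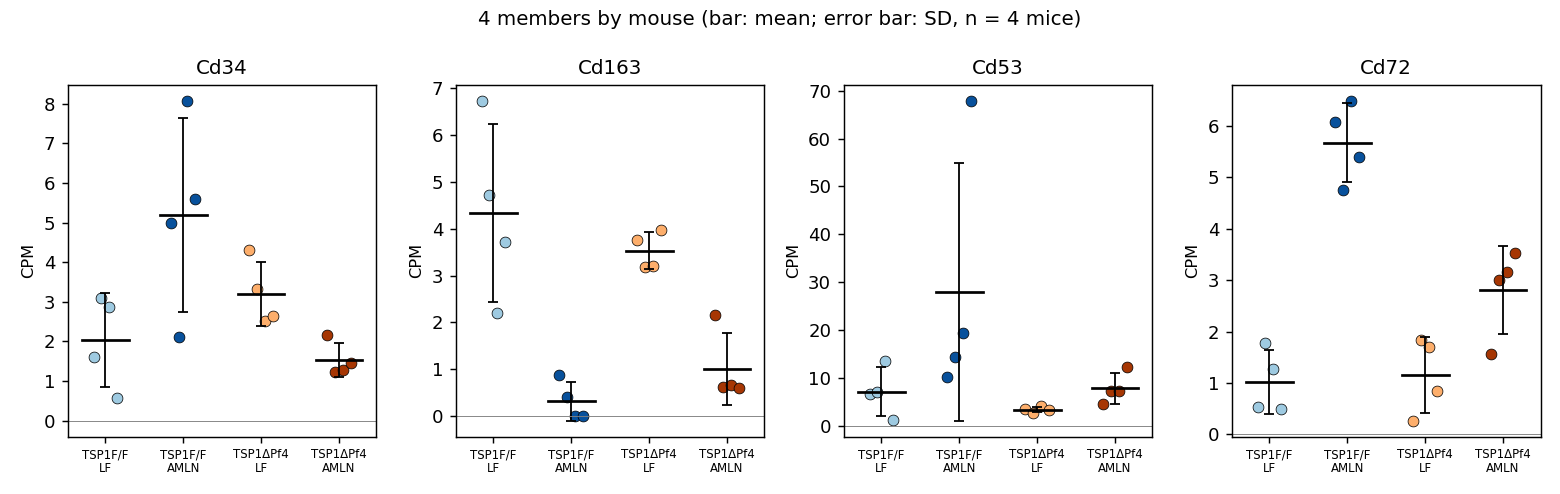
CPM of Cd34, Cd163, Cd53 and Cd72 in each mouse of the 4 groups, with the mean (bar) and SD (error bar, n = 4 mice). Cd34 of AMLN-fed mice lies between 2.11 and 8.07 in TSP1F/F and between 1.23 and 2.17 in TSP1ΔPf4 livers, and 1 Cd53 value, 67.9, stands far above the rest of its group.

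On the LF diet 0 of 11 tested members differed by edgeR's test (0% of all 640 genes called), with 0 members at an unadjusted p-value under 0.05 (3.91% of all higher, 2.97% lower), and DESeq2 called 0 members and 1 gene in all. Their log2 fold changes ran from −1.06 for Cd53 to 1.08 for Cd180, with a median of −0.30 beside 0.03 over all genes. That median was −0.01 without LF-fed TSP1F/F replicate 3, −0.55 and −0.60 without replicates 1 and 4 of that group and −0.57 without LF-fed TSP1ΔPf4 replicate 3. Lower values were seen in 7 (47.0% of all) and higher values in 4 (53.0%), and the groups overlapped in each of the 11 (3.44% of all genes did not overlap and were higher, 1.56% lower). Without LF-fed TSP1F/F replicate 3, Cd53 had −0.54 and Cd48 1.47 in place of −0.22, and without replicate 4 Cd180 had 0.72. For the difference in diet response, 0 of 12 members were called (0.409% of all genes lower, 0% higher), 1 was lower at an unadjusted p-value under 0.05 (12.8% of all) and 0 higher (2.18%), and DESeq2 called 1 member lower (4.36%), Cd34, and 0 higher (1.63%). The median was −0.83 beside −0.34, with 11 members below 0 (67.0% of all) and 1 above (33.0%). It was −0.60 beside 0.05 with TMM and −0.56 beside 0.01 with DESeq2, with 9 members below 0 in both. Without AMLN-fed TSP1F/F replicate 4 the median was −0.19, above the −0.31 of all genes, and it was −0.42 without LF-fed TSP1F/F replicate 4, −1.29 without LF-fed TSP1F/F replicate 3 and −0.53 without LF-fed TSP1ΔPf4 replicate 3. The direction of this difference changed for Cd207 and Cd52 with TMM and DESeq2, where it was slightly above 0, and for Cd53 (0.16) and Cd86 (0.26) without AMLN-fed TSP1F/F replicate 4.

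Genes of the same cells and pathways were followed through 16 lists, which also hold 16 of the members. At an unadjusted p-value under 0.05, 53.0% of all tested genes were higher and 27.1% lower on the AMLN diet in TSP1F/F livers, and 33.8% and 51.9% in TSP1ΔPf4 livers. After adjustment edgeR called 2.39% of all tested genes higher and 0.0954% lower in TSP1F/F livers, and 1.46% and 1.52% in TSP1ΔPf4 livers. Of 12 leukocyte markers not named Cd, 10 were listed in TSP1F/F and 5 in TSP1ΔPf4 livers, and all of these were higher on the AMLN diet, with Rac2, a GTPase of leukocytes, called in TSP1F/F and Itgb2 and Laptm5 in TSP1ΔPf4 livers. Their sums were 20.98, 29.7, 53.4 and 24.0 CPM in LF-fed and 96.8, 82.1, 171 and 175 in AMLN-fed TSP1F/F mice, and 15.2, 18.6, 18.04 and 20.8 in LF-fed and 35.1, 54.9, 49.6 and 44.2 in AMLN-fed TSP1ΔPf4 mice, with Coro1a and Laptm5 the most abundant. The part of these markers in the member values was not tested. Of 16 genes of T cell receptor signalling, 4 (of which Cd3e and Cd3g are members) and 5 were listed. Zap70, the most abundant listed in TSP1ΔPf4 livers (8.38 FPKM), had a log2 fold change of −1.51 there. Fyb and Lcp2 of the same list were higher on the AMLN diet in TSP1ΔPf4 livers (1.27 and 0.71). Both were also higher in TSP1F/F livers (1.64 and 1.81). Cytotoxic and NK cell genes had 4 and 1 listed, B cell and plasma cell markers 2 and 1, dendritic cell markers 2 and 1, neutrophil markers 4 and 0, and platelet and megakaryocyte markers 2 and 0. In these 5 lists edgeR called 0 genes, 9 of 10 tested had an unadjusted p-value under 0.05 in TSP1F/F and 1 of 1 in TSP1ΔPf4 livers, and DESeq2 called Blnk and Pf4 in TSP1F/F and Klrk1 in TSP1ΔPf4 livers, or with the deposited size factors 4 and 0. Gzmk and Tbx21 of the cytotoxic list and Mmp8 of the neutrophil list were at 0 in 1 diet group of TSP1F/F mice.

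Among receptors that work in pairs, 6 of 22 co-stimulation genes were listed in TSP1F/F livers, 5 of them members, and 2 in TSP1ΔPf4 livers, both members. Their counts therefore mostly repeat values of the members, and the tested ones were all higher on the AMLN diet. By edgeR 0 were called and 4 and 2 had an unadjusted p-value under 0.05, while DESeq2 called Cd48 and Cd86 in TSP1ΔPf4 livers, or with the deposited size factors Cd86 in TSP1F/F and Cd48 in TSP1ΔPf4 livers. Of 10 restraint receptors and ligands, 6 and 7 were listed, 3 of them members in each genotype. Sirpa, the receptor for CD47, was called higher in AMLN-fed TSP1F/F livers (log2 fold change 2.44) and lower in AMLN-fed TSP1ΔPf4 than TSP1F/F livers (−1.35). Its ligand gene Cd47 had 83.8, 72.7, 124 and 82.7 CPM in LF-fed and 58.7, 68.1, 66.0 and 68.0 in AMLN-fed TSP1ΔPf4 mice, without overlap. The 22 tetraspanins had 8 and 4 listed, with 2 and 1 members, and Upk1b was called lower in AMLN-fed TSP1ΔPf4 than TSP1F/F livers. The 7 genes of complement restraint had 0 and 3 listed, and the members Cd55 and Cd59a and the protease gene Cfi were all lower in AMLN-fed TSP1ΔPf4 livers, with 1, Cd59a, at an unadjusted p-value under 0.05 by edgeR. By edgeR and by DESeq2 0 were called, while DESeq2 with the deposited size factors called Cd59a. Stellate cell and fibroblast markers had 6 and 5 listed, all higher on the AMLN diet, with Col3a1 and Col1a2 called in TSP1F/F livers. Between the AMLN-fed genotypes Col3a1 was called lower in TSP1ΔPf4 livers (−1.72). The rest of this list tested there, Col1a1, Col1a2 and Pdgfrb, had −0.08, −0.14 and −0.07 and were not called. The sums of the listed stellate cell and fibroblast markers, over different genes in each genotype, were 30.2, 49.3, 35.3 and 22.0 CPM in LF-fed and 121, 112, 211 and 257 in AMLN-fed TSP1F/F mice, and 37.0, 30.3, 26.8 and 22.2 in LF-fed and 72.1, 68.1, 122 and 31.4 in AMLN-fed TSP1ΔPf4 mice, and their part in the Cd34 values was not tested. Cholangiocyte markers had 3 and 2 listed, all higher, and hepatocyte markers 4 and 6, with 4 lower in each genotype. Of these markers edgeR called 0, with 6 and 7 at an unadjusted p-value under 0.05, and DESeq2 called 2 and 4, or with the deposited size factors 0 and 4. Among 33 genes of the 16 lists edgeR called 0 and DESeq2 called Rac2 and Upk1b, with the deposited size factors also Col3a1, and 7 had an unadjusted p-value under 0.05 by edgeR, for the difference between the genotypes in diet response, where Sirpa had −1.39, Rac2 −1.85, Laptm5 −1.68 and Col3a1 −1.73. Between the LF-fed genotypes these genes had 0.05, 1.40, 1.30 and 0.002 in the same order, none of them called. Between the AMLN-fed genotypes they had −1.35, −0.45, −0.38 and −1.72.

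Several members are neighbours on a chromosome, which the choice of genes did not use. Cd244a, Cd48 and Cd84, of the SLAM family, lie within 331526 bases of chromosome 1, Cd3g and Cd3e within 40056 bases of chromosome 9, Cd5 and Cd6 within 111916 bases of chromosome 19, and Cd200r1, Cd200r4, Cd200r3 and Cd200 within 643318 bases of chromosome 16. Mice also differed in how often they held the highest value of their group. AMLN-fed TSP1F/F replicate 4 was highest for 16 of 30 members, beside 34.4% of all listed genes, and AMLN-fed TSP1ΔPf4 replicate 4 for 14 of 20, beside 43.9%. LF-fed TSP1F/F replicate 3 was highest for 14 of 30, beside 35%, and LF-fed TSP1ΔPf4 replicate 3 for 11 of 20, beside 49.4%. Without AMLN-fed TSP1F/F replicate 4, 13 members in place of 21 were higher at an unadjusted p-value under 0.05 between the diets in TSP1F/F livers (44.7% of all genes in place of 53.0%), and 1 was lower (22.3% in place of 27.1%).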

How the data were processed

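Liver RNA of 16 mice was analysed from 2 deposited tables, 1 for each genotype. The paper names STAR 2.7.8a for alignment to mm10, while the submitters' processing notes name HISAT2, mm10 and DESeq2; the counting program, annotation release and strand setting are not given in the sources used here. The deposited counts are whole reads per gene. The signal values deposited by the authors are counts divided by 1 size factor per library. The FPKM deposited by the authors are counts divided by gene length and by a library total. The log2 fold changes, p-values, adjusted p-values and group means deposited by the authors, from DESeq2, were not used, except that the p-value column was read to see how genes were selected (0 over 0.05) and over how many genes the authors adjusted.

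Whether reads of the related genes Cd200r1, Cd200r3 and Cd200r4 were split between them by the counting was not tested. Library totals were computed from counts, lengths and FPKM, because the tables hold selected genes. All 48 columns of single mice were matched and 0 were not. No libraries within a group agreed within sampling noise (lowest chi-square per gene 60.5). Low counts were removed by filterByExpr, and the quasi-likelihood test of edgeR 4.0.16 was run with a prior count of 0.125 (R 4.3.3, limma 3.58.1). Calls needed an adjusted p-value below 0.05 together with a log2 fold change beyond 0.25 in either direction. The diet tests were adjusted over 16784 and 13927 genes, taking unlisted genes as not called, and the genotype and interaction tests over the genes tested. Because the dispersion comes from genes already selected on p, all p-values are limited by it. Alternatives were DESeq2 1.42.0, TMM, the deposited size factors, no filter, other adjustments, a replicate block, all 16 mice in 1 fit and each mouse left out; DESeq2 with the deposited size factors and the alternatives for counts at an unadjusted p-value were added after seeing the data. The test was tried on simulated data. Whether the authors scaled both tables together is not given in the sources used here.

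The members and lists were chosen with earlier results of these data known. Named genes are those called, those in both tables, the 2 members of each cell group with the highest mean FPKM, the 5 largest rises and 5 largest falls in each diet comparison, and Cd4 and Cd8a. Other members that are named, such as Cd47, Cd55, Cd84 and Cd200r1, were named after their values were seen. For 1 gene of the lists the result is not reported here. Coordinates are those of the deposited tables (mm10), and 35 of 37 members have the same coordinates in GENCODE M21. Sequences are from RefSeq, and of 30 member promoters 25 continued into a GENCODE transcript on the same strand and 0 on the other. Python 3.11.15 with pandas 2.3.3, numpy 2.4.6, scipy 1.17.1 and matplotlib 3.10.9 was used. Ratios have exact 95% intervals and floors of 3 counts over a group, which cover counting error only.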

Additional observations from a re-analysis of the deposited data

Results flagged for a closer look

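In each group of 4 mice the highest and the lowest CPM of every member were compared with the others by Dixon's ratio, and 14 of 100 groups had a value far from the rest. Chance gives about 5% for independent groups of normal values, but these groups share mice, and in 5 of the 14 the other 3 mice had 0 counts, so that any count stands apart. Of the AMLN-fed TSP1F/F mice, replicate 4 had the high value for Cd53 (67.9), Cd84 (47.7), Cd200r1 (11.7) and Cd200r4 (6.75), and replicate 2 had a low value for Cd37 (0.674) and a high value for Cd3e (1.71). Of the LF-fed TSP1F/F mice, replicate 3 was high for Cd48 (5.18). In the same group a mouse with 1 to 3 counts stood above others at 0 for Cd8a (0.0551, replicate 3), Cd6 (0.165, replicate 3), Cd5 (0.0536, replicate 2) and Cd200r3 (0.0375, replicate 4). Of the TSP1ΔPf4 mice, AMLN-fed replicate 1 was high for Cd163 (2.17), AMLN-fed replicate 4 for Cd55 (11.9) and LF-fed replicate 1 for Cd8a (0.425).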

How the results depend on the processing

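In TSP1F/F livers the diet test called 1 member and 52 genes. DESeq2 called 7 members and 741 genes with its own and 11 and 563 with the deposited size factors, an adjustment over the tested genes alone gave 17 and 1124, an unadjusted p-value 22 and 1680, and no filter on low counts 83 genes. In TSP1ΔPf4 livers it called 0 members and 92 genes, against 13 and 1376, 12 and 1073, 16 and 2187, and 18 and 2649 in the same order, and 2 and 198 with TMM. Between the AMLN-fed genotypes 1 member and 66 genes were called, against 2 members with DESeq2, 4 and 111 with the deposited size factors in DESeq2, 0 members with TMM, and 9 and 185 at an unadjusted p-value. Members at an unadjusted p-value numbered 9, and 3 with DESeq2 and 3 with TMM. Between the LF-fed genotypes 0 genes were called, with 44 at an unadjusted p-value and 1 by DESeq2 under either set of size factors. For the difference in diet response 0 members and 3 genes were called, against 1 and 44 and 1 and 58 by DESeq2 with its own and with the deposited size factors, 1 and 110 at an unadjusted p-value, and 15 genes with TMM and 8 with the deposited size factors; DESeq2 gave 2 members at an unadjusted p-value. DESeq2 with the deposited size factors, and the alternatives for counts at an unadjusted p-value, were chosen after seeing the data. The cause of these differences was not tested.

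With the replicate number as a replicate block, the diet tests called 0 members and 10 genes in TSP1F/F and 0 and 4 in TSP1ΔPf4 livers, the AMLN-fed genotypes 4 and 116, and the difference in response 0 genes. The labels give the numbers no meaning, and deviations of same-numbered mice correlated from −0.36 to 0.30 between the diets in TSP1F/F and from −0.50 to 0.30 in TSP1ΔPf4 mice, from −0.060 to 0.50 between the LF-fed and from 0.086 to 0.44 between the AMLN-fed genotypes. In none of these was every correlation over 0.1, so the numbers were not taken to pair the mice. Mice correlated best with their own number in 3 of 4 cases between the AMLN-fed and 3 of 4 between the LF-fed genotypes, in 1 of 4 between the diets in TSP1F/F and in 0 of 4 in TSP1ΔPf4 mice. With the block, Cd48 between the LF-fed genotypes was 0.63 in place of −0.22.

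Leaving out 1 mouse at a time gave 0 to 1 members and 2 to 61 genes called for the diet in TSP1F/F, 0 to 1 and 1 to 182 in TSP1ΔPf4, 0 to 3 and 22 to 84 between the AMLN-fed genotypes, 0 and 0 between the LF-fed ones, and 0 to 1 and 0 to 24 for the difference in response. Members at an unadjusted p-value ranged from 14 to 23, 14 to 17, 5 to 10, 0 to 1 and 1 to 4 in the same order. With all mice, 53.0% of all tested genes were higher and 27.1% lower at that level for the diet in TSP1F/F. The next comparisons had 33.8% and 51.9%, 2.59% and 22.6%, 3.91% and 2.97%, and 2.18% and 12.8%, in the same order. The direction of some log2 values changed without 1 mouse. For the difference in response these ranged from −0.64 to 0.029 for Cd14, −0.82 to 0.37 for Cd207, −0.69 to 0.13 for Cd52, −1.29 to 0.16 for Cd53, −1.08 to 0.33 for Cd86 and −4.92 to 1.27 for Cd8a, whose highest value rests on a group at 0 counts and depends on the prior count. Between the LF-fed genotypes they ranged from −0.60 to 1.47 for Cd48 and −0.11 to 0.62 for Cd72, and between the AMLN-fed ones from −0.83 to 0.10 for Cd8a. Under TMM and under the size factors of DESeq2 the difference in response was 0.12 and 0.12 for Cd207 and 0.11 and 0.10 for Cd52. The cause was not tested. Members with few counts, such as the T cell genes, limit what this depth can show.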
